A study of Saccharomyces cerevisiae with 6 samples.

Results

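The map of DNA replication 40 min after release from G1 was compared between *pol2-REL* and wild-type cells of Saccharomyces cerevisiae, locus by locus. The units compared were windows of 1 kb that do not overlap and that have a deposited relative copy number in both 40 min libraries. These were 11509 of the 12070 windows of the genome, and the 561 left out (4.65%) include 246 without reads in wild-type G1. *pol2-REL* cells carried a tagged mutant allele of POL2 (labelled pol2-REL-3HA::KAN) with 3 amino acid substitutions in the POPS region, a part of the catalytic core found only in this polymerase family. Wild-type cells carried the same tag and marker on the normal gene (Pol2-3HA::KAN). Both were of the W303 background, grown in YPD at 24 °C, arrested with alpha factor and released with pronase. Each genotype was profiled in G1 and at 30 and 40 min, with 1 library of 1 strain per condition, so no difference below has a replicate check and no p-value is given.

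Replication starts at origins, where the MCM helicase is loaded in G1 and is activated in S phase by joining Cdc45 and GINS in the CMG complex. Pol2 is the catalytic subunit of DNA polymerase ε, which takes part in helicase activation and then copies the leading strand. In a profile of copy number along a chromosome, an origin used in many cells stands as a peak, its flanks slope down as forks move away, and valleys mark where forks from neighbouring origins meet. A peak that is low or absent is a locus at which few cells had started, or at which the surroundings had already been copied.

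The 40 min libraries held 32534281 reads in *pol2-REL* and 29468649 in wild type, and the G1 libraries 19156804 in *pol2-REL* and 30741752 in wild type. The median compared window held 2687 reads at 40 min and 1641 in G1 in *pol2-REL*, against 2455 and 2487 in wild type, which gives counting errors of 1.93%, 2.47%, 2.02% and 2.01%. The relative copy number is the ratio of 40 min to G1 reads of the same genotype, scaled by the authors to a mean of 1 on each chromosome. It therefore shows how a locus stands relative to its own chromosome and not whether the whole genome was behind. Windows that are lower must be balanced by windows that are higher. Positions are those of the sacCer2 build, and the genes and named origins at them are not given here.

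At 40 min the *pol2-REL* profile was flatter than that of wild type. The SD of the smoothed relative copy number over the 11509 windows was 0.129 in *pol2-REL* and 0.18 in wild type. The line of *pol2-REL* on wild type had a slope of 0.475, with a Pearson correlation of 0.663 across windows, which are neighbours on the same chromosomes and not independent. The difference, *pol2-REL* minus wild type, ranged between -0.507 and 0.488 with an SD of 0.135. The median counting error of an unsmoothed difference in a single window was 0.041.

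A window was called lower or higher where the smoothed values differed by at least 0.10. In all, 2624 windows (22.8%) were lower in *pol2-REL*, with a mean of 1.01 in *pol2-REL* and 1.2 in wild type. Another 2905 windows (25.2%) were higher, with a mean of 1.03 in *pol2-REL* and 0.858 in wild type. The remaining 5980 windows (52.0%) stayed within 0.10, at 0.979 in *pol2-REL* and 0.982 in wild type. On average the lower windows were the high ground of wild type and the higher windows its low ground. In *pol2-REL* both lay close to the chromosome mean. The calls are made on the difference from wild type, so a high wild-type value favours a lower call and a low one a higher call. This contrast is therefore partly set by the call itself. The balance of the calls depends on the scale: with the 5th percentile of each chromosome set to 1 in place of its mean, 6173 windows were lower and 1469 higher. Before smoothing, 67.6% of the windows called lower and 77.8% of those called higher differed by more than 3 counting errors, against 4713 of all 11509 windows. The calls were made from the smoothed form of the same values.

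The G1 libraries differed along the chromosomes too, and this enters the ratio. The median log2 ratio of *pol2-REL* to wild-type G1 reads, centred on each chromosome, was 0.0548 in the lower windows and -0.112 in the higher windows. The same ratio of the 40 min reads alone, without any G1, was -0.172 in the lower windows and 0.157 in the higher ones. When both genotypes were divided by the *pol2-REL* G1 library, 2564 of the 2624 lower windows remained below 0, and when both were divided by the wild-type G1 library, 2561. The direction of these windows is therefore also present in the 40 min reads. Those same reads entered the calls, so keeping the sign is partly set by the call and is no test. The size was not the same: 1793 windows were lower and 1990 higher by 0.10 with the *pol2-REL* G1 library for both.

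The single windows with the lowest unsmoothed difference all lay in the same stretch of chromosome IV. The window at 487001-488000 had 0.808 in *pol2-REL* and 1.519 in wild type, a difference of -0.711 ± 0.0494 (counting error). It held 2230 reads at 40 min and 1680 in G1 in *pol2-REL*, against 3462 and 2119 in wild type. The window at 499001-500000 had 0.922 in *pol2-REL* and 1.528 in wild type, and the window at 504001-505000 had 1.033 and 1.603. The windows with the highest difference were on 3 chromosomes. The first window of chromosome XII had 1.514 in *pol2-REL* and 0.982 in wild type, the window at 1053001-1054000 of chromosome XV had 1.563 and 1.038, and the window at 134001-135000 of chromosome XVI had 1.232 and 0.772. The first of these is the chromosome's end and the second is 38 kb from one.

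The share of lower windows varied between chromosomes. Chromosome XIV had the largest, with 225 of 744 windows (30.2%), followed by II with 228 of 788 (28.9%) and then IV and XVI (27.6% each). Chromosome I, the shortest, had the smallest, with 14 of 196 (7.14%) and no run of lower windows long enough to be called a domain, followed by VII (16.0%) and XIII (16.9%). Counting only windows in runs of at least 10, the order was II (27.8%), XIV (27.7%) and XV (25.6%) at the top and I (0%), VII (14.6%) and XIII (14.9%) at the bottom. Chromosome IV, the longest, also had the largest share of higher windows (34.5%). Its slope of *pol2-REL* on wild type was 0.236, the lowest of the 16 chromosomes, with an SD of 0.0971 in *pol2-REL* and 0.197 in wild type. The profile of chromosome IX was not flattened by this measure: its slope was 0.962, with an SD of 0.175 in *pol2-REL* and 0.151 in wild type. On chromosome III both SDs were 0.155, and on chromosome XIV the SD was 0.131 in *pol2-REL* and 0.123 in wild type with a Pearson correlation of 0.437, the lowest of the 16.

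**Figure D1:**
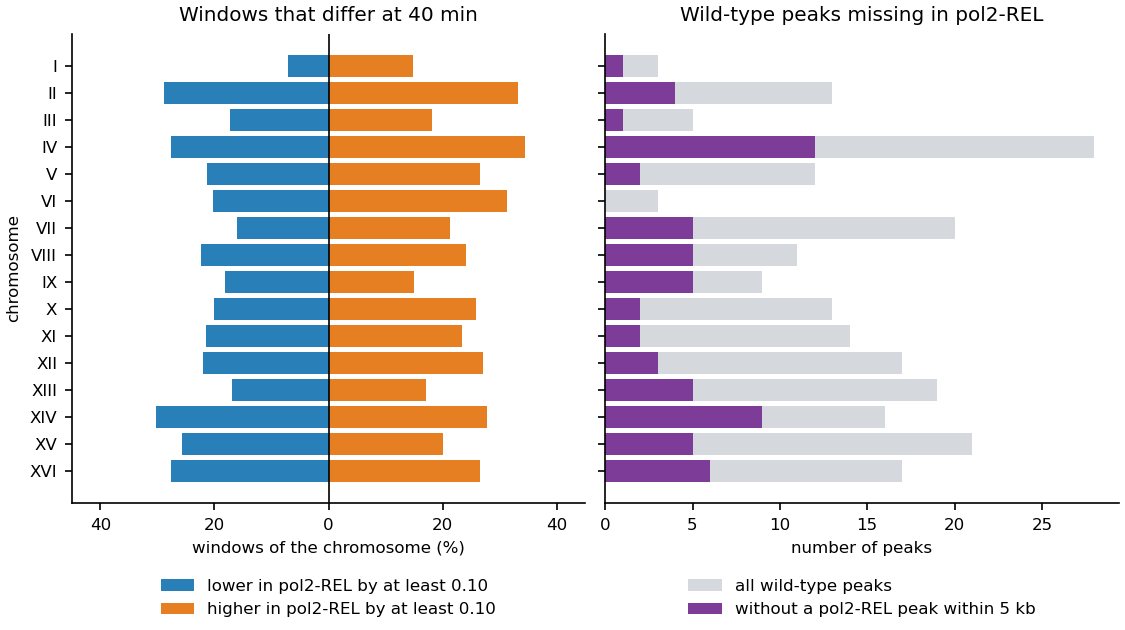
Left, percent of each chromosome's windows in which *pol2-REL* was lower (blue, to the left of 0) or higher (orange, to the right) than wild type by at least 0.10 at 40 min; right, number of wild-type peaks (grey) and of those without a *pol2-REL* peak within 5 kb (purple). Chromosome XIV had the largest share of lower windows (30.2%) and chromosome I the smallest (7.14%), and 12 of the 28 wild-type peaks of chromosome IV were missing.

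A peak was a maximum of the smoothed profile, at least 10 kb from any other, with a prominence of at least 0.05, where prominence is how far a summit stands above the valley that separates it from higher ground. *pol2-REL* had 168 peaks and wild type 221. A wild-type peak is called missing here if none was called in *pol2-REL* at most 5 kb from it, which was so for 67 (30.3%). A smaller maximum of any size lay within 5 kb in *pol2-REL* at 50 of the 67 sites, and 17 had none. Some of these maxima were minute, with a prominence of 0.000336 at 227001 of chromosome X and 0.0038 at 170001 of chromosome VIII. The count of 50 therefore does not show that a peak was kept. With a lower limit of 0.02 on the prominence in *pol2-REL*, 37 peaks were missing.

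The missing peaks were mostly the small ones. Of 42 wild-type peaks with a prominence of 0.05 to 0.1, 30 were missing (71.4%), of 62 at 0.1 to 0.2, 23 (37.1%), of 39 at 0.2 to 0.3, 7 (17.9%), of 47 at 0.3 to 0.5, 6 (12.8%), and of 31 above that, 1 (3.23%). A small peak needs a smaller change to fall below the limit of 0.05, so this order is partly set by the call itself. A height that does not use the peak call in *pol2-REL* was therefore taken at each wild-type summit, as the unsmoothed mean of the 3 central windows minus the mean of the flanks at 15 to 20 kb.

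Among the 64 missing peaks with both flanks, the median height was 0.0262 in *pol2-REL* and 0.15 in wild type. *pol2-REL* was lower at 62 of them, by more than 3 counting errors at 50, and higher by that margin at 0. From the 40 min reads alone the height was also lower at 62, with a median log2 value of -0.155, while the G1 libraries differed by a median of 0.00856 between summit and flanks. These peaks were chosen for a low *pol2-REL* profile, so the values describe them and are no test. At 30 min the median height at these summits was 0.000544 in *pol2-REL* and 0.0345 in wild type. A peak was called at that time at 3 of the 67 in *pol2-REL* and at 26 in wild type, against 119 and 163 of all 221 wild-type peaks. The 30 min ratios share the G1 libraries with those at 40 min, so they are not independent of how these peaks were chosen.

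The most prominent missing peak was on chromosome IV at 483001-484000, with a wild-type prominence of 0.739. Its summit window held 2877 reads at 40 min and 1624 in G1 in *pol2-REL*, against 3748 and 2146 in wild type. The smoothed value was 0.994 in *pol2-REL* and 1.49 in wild type at 40 min, and 0.934 and 1.01 at 30 min. Its height above flanks was -0.00025 in *pol2-REL* and 0.119 in wild type, a difference of -0.119 ± 0.0341 (counting error). The wild-type flanks were themselves high here, and the loss in level was larger than the loss in height.

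At 3 other sites a tall wild-type peak was replaced by a nearly flat profile. The peak of chromosome VII at 351001-352000 had a height of 0.0757 in *pol2-REL* and 0.385 in wild type, a difference of -0.31 ± 0.0312. It held 2546 reads at 40 min and 1600 in G1 in *pol2-REL*, against 2919 and 2178 in wild type. The peak of chromosome VIII at 392001-393000 had a height of 0.0358 in *pol2-REL* and 0.333 in wild type, and that of chromosome XIV at 170001-171000 had 0.0647 and 0.294. All 3 differences were above 7 counting errors, and all 3 sites had a called peak at 30 min in wild type and none in *pol2-REL*. The heights at 30 min did not all go the same way. They were 0.0365 in *pol2-REL* and 0.116 in wild type on chromosome VII, and -0.0143 and 0.1 on chromosome VIII. On chromosome XIV the height at 30 min was larger in *pol2-REL*, at 0.0963 against 0.0302 in wild type.

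On chromosome IV at 1354001-1355000 the summit itself was level, at 1.06 in *pol2-REL* and 1.07 in wild type, and it was the surroundings that were higher in *pol2-REL*, so that the height was 0.0721 in *pol2-REL* and 0.317 in wild type. On chromosome IV at 751001-752000 the summit was lower, at 0.97 in *pol2-REL* and 1.16 in wild type, with heights of 0.0479 and 0.174. On chromosome XV at 657001-658000 the summit was at 1.06 in *pol2-REL* and 1.27 in wild type, with heights of 0.0292 and 0.176. *pol2-REL* had a summit of its own 8 kb away, at 665001-666000 with a prominence of 0.189, so this peak counts as missing only under the limit of 5 kb. On chromosome IX at 342001-343000 the height was 0.164 in *pol2-REL* and 0.162 in wild type, a difference within counting error (0.00217 ± 0.0291), and *pol2-REL* had its own summit at 358001-359000 instead. That peak counts as missing only because of where the summit of the broad hill lies. On chromosome XIV at 691001-692000 the height was 0.0517 in *pol2-REL* and 0.264 in wild type, with a *pol2-REL* summit 6 kb away. The last of the 10, at 11001-12000 of chromosome XII, was 11 kb from the chromosome end, with a level of 1.38 in *pol2-REL* and 1.3 in wild type at 40 min, and 1.33 and 0.924 at 30 min.

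**Figure D2:**
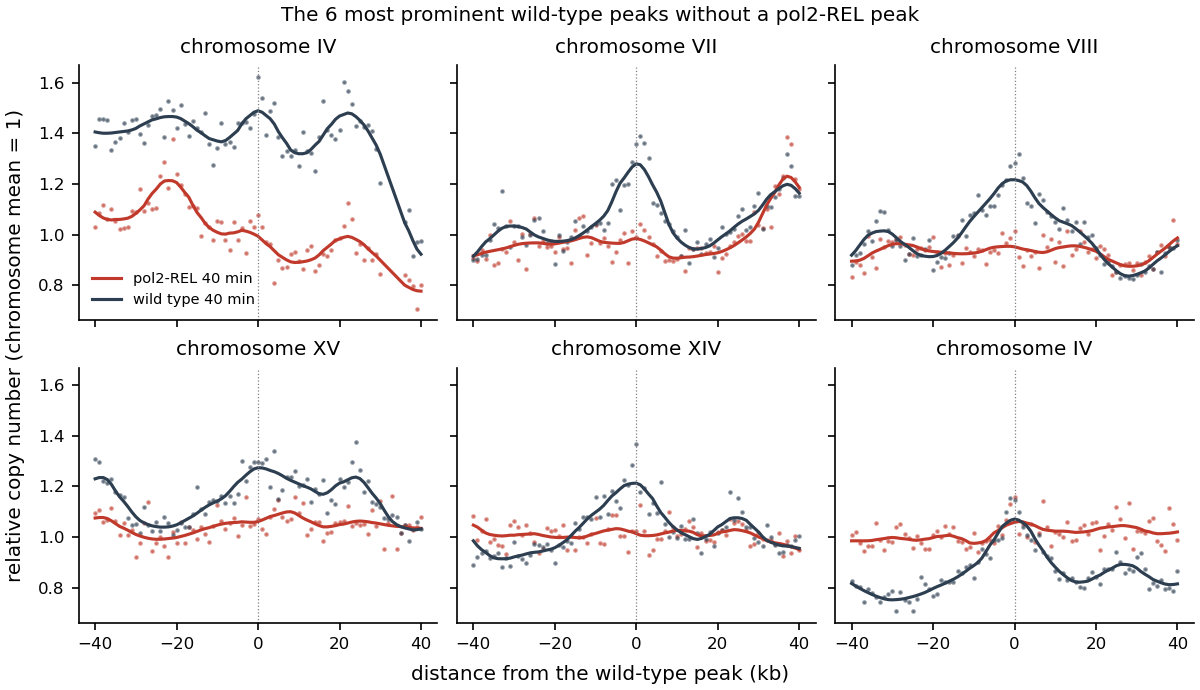
Relative copy number at 40 min (chromosome mean = 1) against distance from the wild-type summit in kb at the 6 most prominent wild-type peaks without a *pol2-REL* peak, in *pol2-REL* (red) and wild type (dark blue); lines are the deposited smoothed values and points the unsmoothed 1 kb windows. On chromosomes VII, VIII and XIV the wild-type summits at 1.28, 1.22 and 1.21 stand over *pol2-REL* values of 0.984, 0.952 and 1.01, while at the last chromosome IV peak the summits are at 1.06 in *pol2-REL* and 1.07 in wild type and the flanks differ.

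Of the 117 wild-type peaks with a prominence of at least 0.2, 14 were missing, these 10 and 4 more. The median height of the 13 with flanks was 0.0358 in *pol2-REL* and 0.264 in wild type, and 12 were lower by more than 3 counting errors. The 4 that complete this set, named after their values were seen, were at 130001-131000 of chromosome III, 1109001-1110000 of chromosome IV, 450001-451000 of chromosome XIV and 187001-188000 of chromosome XVI. Their levels were 0.948, 0.939, 0.899 and 1.04 in *pol2-REL*, and their height differences lay between -0.271 and -0.0901. The deepest of these losses was that of chromosome XIV, with a height of 0.00242 in *pol2-REL* and 0.273 in wild type, and at 30 min -0.0173 and 0.107.

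Missing peaks were spread over 15 of the 16 chromosomes, and chromosome VI had none among its 3. Chromosome XIV lost 9 of 16, chromosome IX 5 of 9, chromosome VIII 5 of 11 and chromosome IV 12 of 28. At 4 places at least 3 neighbouring wild-type peaks in a row were missing. The longest row was on chromosome XIV, with 5 peaks between 127001 and 280001, whose heights lay between 0.00933 and 0.0778 in *pol2-REL* and between 0.112 and 0.294 in wild type. On chromosome XV the 3 peaks at 657001 (the one with a *pol2-REL* summit 8 kb away), 681001 and 728001 had heights between -0.0267 and 0.0292 in *pol2-REL* and between 0.173 and 0.176 in wild type. The other rows were on chromosome IV. At 751001 to 878001 heights lay between 0.0243 and 0.0991 in *pol2-REL* and between 0.153 and 0.268 in wild type. The difference at 878001 was -0.169 ± 0.0778. At 1354001 to 1403001 they lay between 0.0118 and 0.0721 in *pol2-REL* and between 0.0225 and 0.317 in wild type. The middle peak there, at 1381001, was not lower in height, at 0.0276 in *pol2-REL* and 0.0225 in wild type (0.00508 ± 0.027).

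The other 154 wild-type peaks were shared. They were kept because a peak was called in *pol2-REL*, which favours a tall summit there, so the values describe them and are no test. The median height was 0.24 in *pol2-REL* and 0.242 in wild type over the 149 with flanks, and the median of the differences peak by peak was -0.0218. *pol2-REL* was lower at 81 of them, by more than 3 counting errors at 32, and higher by that margin at 21. The shared peaks were narrower in *pol2-REL*: the median width, measured midway up the prominence, was 16.4 kb in *pol2-REL* and 21.0 kb in wild type, and 113 of the 154 were narrower. Their median prominence was 0.218 in *pol2-REL* and 0.265 in wild type, and it was lower in *pol2-REL* at 107 of the 154. By definition prominence, and the width taken from it, also depend on which neighbouring summit is higher. Both can shift without a change in height. The summits kept their place, with 119 within 1 kb of each other and none more than 4 kb apart.

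Averaged over the shared peaks, *pol2-REL* was lower by less at the summit than beside it. The summit value was 1.23 in *pol2-REL* and 1.25 in wild type, a difference of -0.0249 ± 0.0041 (counting error). At 5 kb to either side the value was 1.08 in *pol2-REL* and 1.14 in wild type, a difference of -0.0588 on one side and -0.0539 on the other, each with a counting error of 0.0038. At 20 kb the differences were -0.00517 and -0.017. Around the missing peaks the order was the opposite. There the summit was at 1 in *pol2-REL* and 1.11 in wild type (-0.107 ± 0.00541), and at 20 kb *pol2-REL* was higher by 0.0344 and 0.0363. Peaks were split by whether *pol2-REL* had a summit, which favours a small summit gap at shared peaks and a large gap at missing peaks. The contrast is therefore partly set by the call and is no test.

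**Figure D3:**
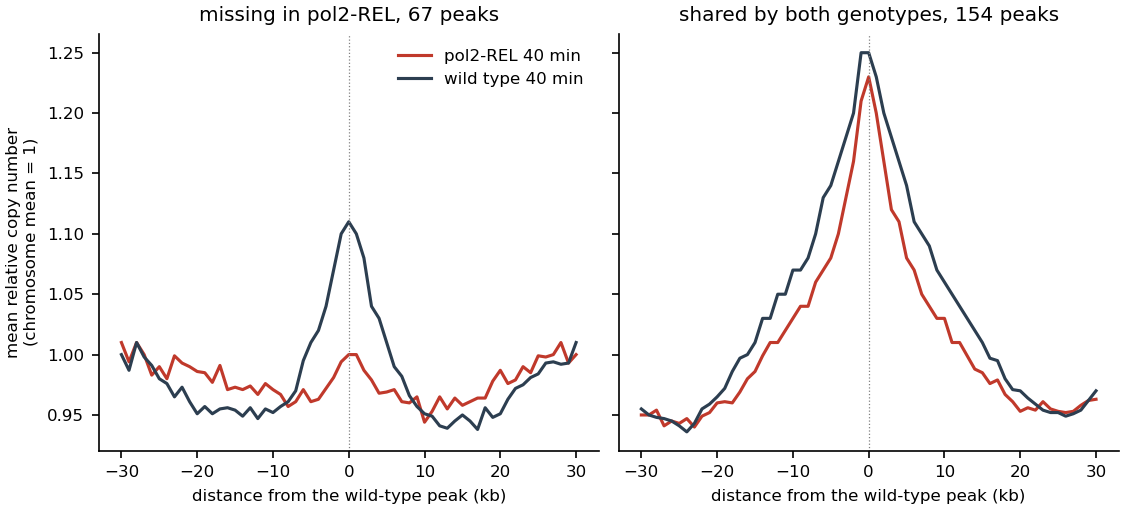
Mean relative copy number at 40 min (unsmoothed, chromosome mean = 1) against distance from the wild-type summit in kb, in *pol2-REL* (red) and wild type (dark blue), over the 67 wild-type peaks missing in *pol2-REL* (left) and the 154 shared ones (right). At the missing peaks the summit is at 1 in *pol2-REL* and 1.11 in wild type, and at the shared peaks at 1.23 and 1.25, with a wider gap at 5 kb. The contrast between the panels is partly set by the peak call in *pol2-REL* that split them.

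The shared peaks with the most changed heights, named after their values were seen, show both directions. At 412001-413000 of chromosome XIV the height was 0.0537 in *pol2-REL* and 0.302 in wild type, a difference of -0.249 ± 0.03. At 512001-513000 of chromosome XVI it was 0.184 in *pol2-REL* and 0.43 in wild type, and at 326001-327000 of chromosome II 0.205 and 0.439. In the other direction, at 411001-412000 of chromosome IX it was 0.47 in *pol2-REL* and 0.219 in wild type, a difference of 0.251 ± 0.0337. At 94001-95000 of chromosome V it was 0.388 in *pol2-REL* and 0.149 in wild type, and at 199001-200000 of chromosome VI 0.377 and 0.172.

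*pol2-REL* also had 14 peaks (8.33% of its 168) without a wild-type peak within 5 kb. The most prominent was at 435001-436000 of chromosome IV, where the level was 1.22 in *pol2-REL* and 1.43 in wild type. This locus was thus a summit in the mutant while being lower than in wild type. The next were at 358001-359000 of chromosome IX (1.23 in *pol2-REL* and 1.17 in wild type) and at 110001-111000 of chromosome III (1.12 and 1.16). All 3 loci had a called peak at 30 min in both genotypes.

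Runs of at least 10 lower windows, allowing 2 missing windows, were called lagging domains. There were 75, covering 2413 windows or 21.0% of those compared, with a median of 24 windows and a longest of 118. The mean level in them was 1.02 in *pol2-REL* and 1.2 in wild type. Of the 75, 61 held at least 1 wild-type peak, with 3.15 wild-type peaks per 100 kb, against 1.59 in stretches that were level between the genotypes. The domains are called on the difference from the same wild-type profile, and a high wild-type value favours the call. This density is therefore partly set by the call and is no test of where the domains lie. Of the 76 wild-type peaks inside lagging domains, 22 were missing and 54 were shared, a share of missing peaks near the 30.3% of all wild-type peaks. No lagging domain lay within 100 kb of a chromosome end, and their median distance was 291 kb.

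The longest lagging domain was on chromosome IV, 396001-514000, with a mean level of 1.03 in *pol2-REL* and 1.35 in wild type, a difference of -0.318, the lowest of all domains. It held 318035 reads at 40 min and 187839 in G1 in *pol2-REL*, against 368641 and 254138 in wild type. At 30 min the same stretch had 0.926 in *pol2-REL* and 0.965 in wild type, a difference of -0.0389. Of its 4 wild-type peaks, the 3 at 407001, 462001 and 505001 were shared and that at 483001 was missing. At the shared peak at 505001 the level was 0.993 in *pol2-REL* and 1.48 in wild type. The 40 min reads alone gave a log2 ratio of -0.336 over the domain, and the G1 reads 0.0577.

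The other long lagging domains were shallower. Chromosome XV 296001-389000 had 0.935 in *pol2-REL* and 1.1 in wild type, chromosome XVI 501001-591000 had 0.982 and 1.17, and chromosome X 379001-455000 had 1.09 and 1.27. The same pattern was seen on chromosome XI 405001-475000 (1.11 in *pol2-REL* and 1.33 in wild type), chromosome V 122001-189000 (1.11 and 1.32) and chromosome XIII 251001-311000 (1.21 and 1.41). The rest of the 10 longest were chromosome XV 412001-474000, chromosome XI 283001-343000 and chromosome XII 708001-764000, with differences of -0.165, -0.22 and -0.239. All 10 stayed at or below -0.10 with either G1 library used for both genotypes. In the 40 min reads alone, 9 of the 10 were lower by at least 1.1-fold, the exception being chromosome XV 412001-474000 with a log2 ratio of -0.132. Taken as the residual from a line of *pol2-REL* on wild type for each chromosome, 2 of the 10 stayed at or below -0.10, and chromosome IV 396001-514000 was at -0.0513. The slope of such a line falls with the correlation as well as with the SD of *pol2-REL*, and on chromosome IV the Pearson correlation was 0.478. The residual therefore takes out more than a flatter profile alone.

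Over all 75 lagging domains the sign was the same with either G1 library for both genotypes and in the 40 min reads alone. The domains were called with these same 40 min reads, so the kept sign is partly set by the call. Fewer passed the threshold: 51 with the *pol2-REL* G1 library, 53 with the wild-type G1 library, 49 by at least 1.1-fold without G1, and 47 under all of these. In 69 of the 75 the G1 ratio had the opposite sign to the difference, so the G1 libraries widened the gap there. Called anew with the *pol2-REL* G1 library for both, lagging domains covered 1558 windows. At 30 min, 65 of the 75 were lower in *pol2-REL*, 8 of them by at least 0.10; that comparison shares the G1 libraries with the one at 40 min.

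Runs of higher windows, called leading domains by the same rule, numbered 72 and covered 2763 windows (24.0%). Their mean level was 1.03 in *pol2-REL* and 0.855 in wild type, and they were poor in peaks, with 1.05 wild-type peaks per 100 kb and 49 of the 72 holding none. A low wild-type value favours this call, so the scarcity of peaks is again partly set by it. Leading here means higher relative to the mean of the chromosome, and on this scale it need not mean more copied DNA. The longest was chromosome IV 16001-211000, with 1.03 in *pol2-REL* and 0.814 in wild type. It held 559640 reads at 40 min and 332735 in G1 in *pol2-REL*, against 459005 and 524947 in wild type. Chromosome II 644001-809000 followed with 1.06 in *pol2-REL* and 0.878 in wild type, then chromosome VII 979001-1084000 with 1.03 and 0.823, and chromosome IV 1362001-1459000 with 1.04 and 0.842.

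The other leading domains among the 10 longest were chromosome XVI 62001-153000, chromosome XIV 6001-97000, chromosome XV 1001001-1080000, chromosome V 498001-571000, chromosome XVI 857001-928000 and chromosome XV 1-69000, with differences between 0.159 and 0.233. All 10 lay at least in part within 100 kb of a chromosome end, as did 44 of the 72. In the 10 longest the G1 log2 ratio lay between -0.228 and -0.119. With either G1 library for both, 7 of the 10 stayed at or above 0.10, and chromosome XIV 6001-97000, chromosome V 498001-571000 and chromosome XV 1-69000 did not, at 0.0888, 0.0823 and 0.0546 with that of *pol2-REL*. As the residual from the line of each chromosome, 5 of the 10 stayed at or above 0.10. Over all 72 the sign was kept with either G1 library for both genotypes and in the 40 min reads alone, with 46, 45 and 45 past the threshold. As for the lagging domains, the kept sign is partly set by the call. Called anew with the *pol2-REL* G1 library for both, leading domains covered 1810 windows.

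**Figure D4:**
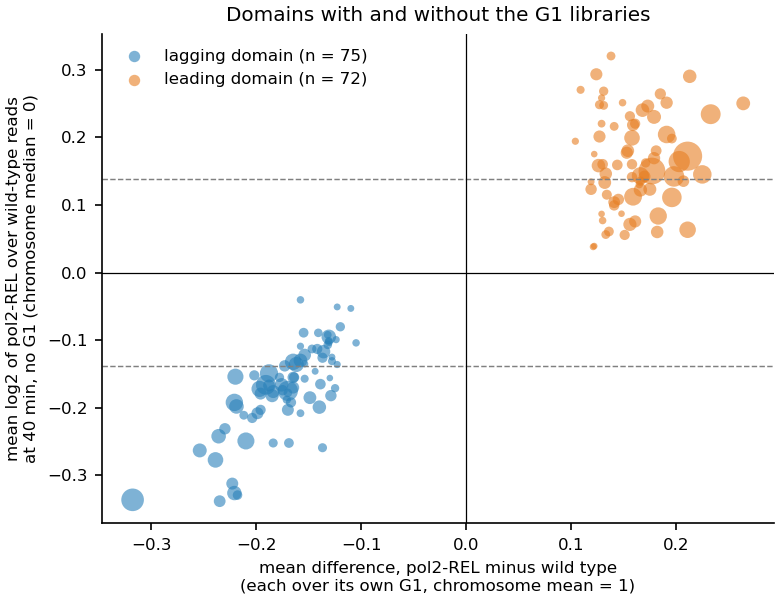
Each point is 1 of the 75 lagging (blue) or 72 leading (orange) domains, its area set by its number of windows; the horizontal axis is the mean difference in relative copy number at 40 min, *pol2-REL* minus wild type, each over its own G1, and the vertical axis the mean log2 ratio of *pol2-REL* to wild-type reads at 40 min without G1 (chromosome median = 0, dashed lines at 1.1-fold). Every lagging domain is below 0 and every leading domain above 0 on both axes, and 49 lagging and 45 leading domains lie beyond the dashed lines. Both axes use the 40 min reads from which the domains were called.

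Relative to the mean of their chromosomes, many stretches did not lag. Runs of at least 10 windows within 0.10 of each other numbered 162 and covered 5711 windows (49.6%), with a mean level of 0.977 in *pol2-REL* and 0.98 in wild type. The longest was chromosome VII 175001-343000, 168 windows with 0.996 in *pol2-REL* and 1.01 in wild type, where the profile of both genotypes still had relief, between 0.893 and 1.22 in *pol2-REL* and between 0.83 and 1.28 in wild type. Of its 3 wild-type peaks, 1 was missing. Chromosome XVI 624001-756000 had 0.913 in *pol2-REL* and 0.917 in wild type, chromosome X 246001-367000 had 0.947 and 0.952, and chromosome XIII 683001-803000 had 0.927 and 0.888. In the last, 2 of 3 wild-type peaks were missing, although the stretch was level on average. The other 6 of the 10 longest, on chromosomes V, VII, X and XV, had mean differences between -0.0295 and 0.0292. In all, 24 of the 91 wild-type peaks in level runs were missing, near the share of 30.3% over all wild-type peaks.

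The difference varied with distance to a chromosome end. At 50 to 100 kb from an end the mean was 1.02 in *pol2-REL* and 0.907 in wild type, and 0 of these 1555 windows were lower by 0.10 while 57.6% were higher. Beyond 300 kb the mean was 0.987 in *pol2-REL* and 1.07 in wild type, with 42.3% lower and 3.89% higher. The G1 libraries differed with distance too, in the opposite direction, with a mean log2 ratio of -0.109 at 50 to 100 kb and 0.0575 beyond 300 kb. The 40 min reads alone had 0.0653 and -0.049 at these distances. With the G1 library of *pol2-REL* used throughout, the differences were 0.0476 and -0.0334, less than those of 0.114 and -0.0838 with each genotype's own. In the last 10 kb the sign depended on the G1 libraries: the mean was 1.12 in *pol2-REL* and 1.05 in wild type, but the 40 min reads alone had a log2 ratio of -0.0302 in the last 10 kb and the difference with the *pol2-REL* G1 library was -0.0171. The difference, *pol2-REL* minus wild type, was compared on the 10 chromosomes with at least 50 windows beyond 300 kb. On all 10 it was higher in the windows at 30 to 100 kb than in those beyond 300 kb. The same held for the log2 ratio of the 40 min reads alone. The last 30 kb were not part of that count.

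**Figure D5:**
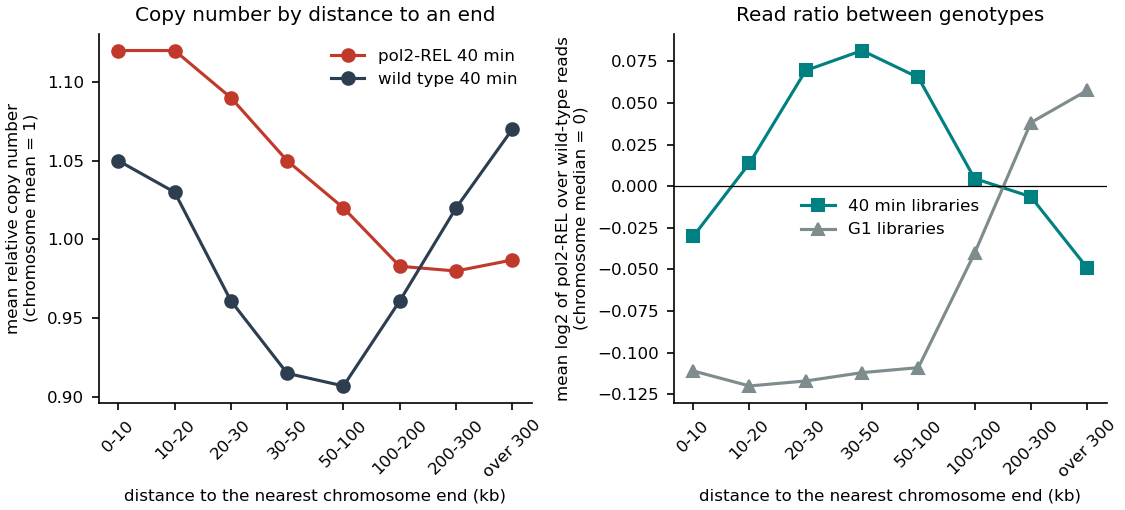
Left, mean relative copy number at 40 min (chromosome mean = 1) by distance to the nearest chromosome end in kb, in *pol2-REL* (red) and wild type (dark blue); right, mean log2 ratio of *pol2-REL* to wild-type reads (chromosome median = 0) in the 40 min libraries (green squares) and the G1 libraries (grey triangles). At 50 to 100 kb the copy number is 1.02 in *pol2-REL* and 0.907 in wild type and the G1 ratio is -0.109; beyond 300 kb it is 0.987 and 1.07 and the G1 ratio is 0.0575.

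The section of chromosome XV between 400000 and 930000 shows these patterns side by side. Of its 516 windows 178 were lower (34.5%) and 4 higher (0.775%), and its mean was 1 in *pol2-REL* and 1.06 in wild type. Of its 12 wild-type peaks, 4 were missing, at 567001, 657001 (with the summit 8 kb away), 681001 and 728001. The tallest wild-type peak, at 435001-436000, was shared, at 1.21 in *pol2-REL* and 1.46 in wild type with heights of 0.32 and 0.423. The peak at 464001-465000 differed in height by less than its counting error, with 0.139 in *pol2-REL* and 0.162 in wild type (-0.0233 ± 0.0316). The peak at 766001-767000 had a prominence of 0.0733 in *pol2-REL* and 0.194 in wild type. There were 5 lagging domains, the longest at 412001-474000, and between them lay level stretches, the longest at 710001-829000 with 1.01 in *pol2-REL* and 0.992 in wild type.

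The windows were also ordered by relative copy number at 30 min, as a rough stand-in for time of replication. This gave no stable trend. Groups that were low at 30 min are called late here. In 10 equal groups by the mean of both genotypes at 30 min, the difference was -0.0515 ± 0.00119 (counting error) in the latest group, with 0.905 in *pol2-REL* and 0.957 in wild type, at most 0.0407 in a group between, and -0.0143 ± 0.00153 in the earliest, with 1.24 and 1.26. The SD of the difference within a group was 0.115 to 0.162, larger than any of these means. Ordered by wild type alone at 30 min the latest group was at 0.0132, and ordered by *pol2-REL* alone the earliest was at 0.0794, so the sign of both ends depends on which library sets the order. The 30 and 40 min ratios of a genotype share its G1 library, which by itself can shift both ends. In the order by both genotypes, the wild-type level at 40 min was 0.957 in the latest group and 0.968 in the group ranked 7. In wild type these groups were thus hardly apart at 40 min, while in *pol2-REL* they were at 0.905 and 0.997.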

How the data were processed

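Genomic DNA of *pol2-REL* and wild-type cells in G1 and at 30 and 40 min was sequenced, with 1 library for each of 6 conditions, grouped by the sample labels. Per the labels, cutadapt, BWA 0.7.8 and Picard 1.110 were used with the sacCer2 build, and their roles are not stated there. The authors deposited read counts in 1 kb windows that start every 500 bp, without normalization. They also deposited each S phase count divided by that of G1, this ratio after scaling so that every chromosome averages 1, and a LOESS-smoothed form. Its span was not given in the sources used here. No factor for DNA content is in the scaled values.

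From these, windows that do not overlap were compared. Differences, domains, peaks and heights were computed as the report defines them, with counting errors from the 4 read counts of a window, which treat reads as independent and do not cover the variation between cultures. The named loci were the 10 most prominent missing peaks, the 10 longest domains of each kind, the 3 windows lowest and the 3 highest in difference, the 3 chromosomes with the largest and the 3 with the smallest share of lower windows, and the section of chromosome XV. The loci, lists and limits were chosen with earlier results of these data known. The code was tested on simulated counts with known peaks and differences. Alternatives changed the threshold, run length, peak limits, smoothing, scaling, G1 reference, window offset, a minimum of 1000 reads and the chromosome ends. SciPy 1.17.1, pandas 2.3.3, numpy 2.4.6 and matplotlib 3.10.9 were used under Python 3.11.15.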

Additional observations from a re-analysis of the deposited data

Results flagged for a closer look

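In 6 named loci the difference between *pol2-REL* and wild type had opposite signs at 30 and 40 min. No size limit was set and no counting error is given for 30 min, so values near 0 are included and need not be reversals. The lagging domain of chromosome V at 122001-189000 had a mean difference of 0.00515 at 30 min (0.994 in *pol2-REL* and 0.988 in wild type) and -0.21 at 40 min (1.11 and 1.32). The missing peak of chromosome IV at 1354001-1355000 had a difference of 0.00536 at 30 min (1.04 in *pol2-REL* and 1.03 in wild type) and -0.0131 at 40 min (1.06 and 1.07). Among the 10 longest level stretches, chromosome XIII 683001-803000 had -0.0134 at 30 min and 0.0392 at 40 min, and 3 stretches of chromosome XV did likewise: 503001-595000 with -0.09 and 0.0292, 710001-829000 with -0.0597 and 0.019, and 211001-296000 with -0.0315 and 0.00842. The difference between the time points was not tested, as there was 1 library per condition.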

How the results depend on the processing

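Missing peaks numbered 58 to 73 under 9 of 10 alternatives and 63 when peaks within 30 kb of an end were left out, an alternative chosen after seeing the data. The exceptions were 37 with a prominence of 0.02 allowed in *pol2-REL* and, also chosen after seeing the data, 17 when any maximum of *pol2-REL* within 5 kb counted. Smoothing by a running mean, the other window offset, 1000 reads as a minimum and the loss of 30 kb at the ends left all counts of windows and domains within 1.5 times. A threshold of 0.05 gave 4139 lower windows and 3925 in lagging domains. A threshold of 0.15 gave 1546 lower and 1731 higher windows, with 1369 in lagging and 1606 in leading domains. With the 5th percentile of each chromosome at 1, 6173 windows were lower and 1469 higher, with 5999 in lagging and 1332 in leading domains. Windows in lagging domains were 1558 with the *pol2-REL* G1 library for both, 1542 with that of wild type, 1550 with the sum of both (chosen after seeing the data) and 1593 without G1, and windows in leading domains were 1810, 1758 and 1766 with these G1 libraries. Runs of at least 20 windows gave 49 lagging domains. As the residual from a line of *pol2-REL* on wild type, 1429 windows were lower and 1530 higher, with 46 lagging domains of 1212 windows and 1321 windows in leading domains. Minus a broad running mean, chosen after seeing the data, which removes broad differences by construction, 864 windows were lower and 778 higher, with 33 lagging domains of 553 windows and 33 leading domains of 530 windows. Under it, the leading domains of chromosome XIV at 6001 and of chromosome V at 498001 turned to -0.00154 and -0.00622, and 0 of the 10 longest domains of either kind passed 0.10. The slope of *pol2-REL* on wild type was 0.463 unsmoothed, 0.609 with the *pol2-REL* G1 library for both and 0.607 with that of wild type. The latest of the 10 timing groups was at 0.0132 when ordered by wild type and at -0.0664 when ordered by *pol2-REL*, and at -0.0362 and -0.0353 with the *pol2-REL* and wild-type G1 library for both. The earliest was at -0.0659 when ordered by wild type and at 0.0794 when ordered by *pol2-REL*, and at -0.0107 and -0.00966 with these G1 libraries. Apart from what the construction of an alternative shows, the cause of these shifts was not tested. Leaving out a replicate was not possible with 1 library per condition. No paired analysis was possible because each condition has 1 library, so the genotypes share a single replicate number. Depth limits a single window to a counting error of about 0.041 in the difference, and no value covers the difference between cultures.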
